A study of Mus musculus with 6 samples.

Results

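The 47 genes examined here encode products of the non-haematopoietic cells of an organ: mesenchymal cells and the extracellular matrix they lay down, the mural cells and endothelium of vessels, and the epithelium that is particular to the thymus. Each gene was matched by its symbol in the 6 deposited tables and its FPKM (a level per length of transcript and per mapped fragment of the library) was summed over the loci that name it. All 47 were found among 24318 symbols. By role, 30 are mesenchymal and matrix genes, 4 mural, 6 endothelial and 5 epithelial, and the other 2, Thy1 and Vim, are also genes of thymocytes and other leukocytes.

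The RNA came from mouse thymocytes of the double-negative 1 (DN1) stage, the entry stage of T-cell development. Sorted cells expressed CD44, a hyaluronan receptor, and lacked CD25, CD8a, TCRb and lineage markers. The labels do not list the lineage antibodies and name no leukocyte marker such as CD45 in the gate. One group is labelled WT and the other Tle134-deficient, read here as lacking Tle1, Tle3 and Tle4, with 3 libraries each from mice 5 to 8 weeks old. The labels do not say how or in which cells the genes were deleted, nor whether each library is a different animal, so the p-values rest on the spread of these samples, which can be technical in part.

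Groucho/Tle proteins are corepressors recruited by Tcf/Lef, Runx and other factors. As a check of the labels, Tle1 measured 1.37, 1.19 and 3.61 FPKM in WT replicates 1 to 3 and 11.5, 11.3 and 11.1 FPKM across the labelled-deficient libraries. Tle3 and Tle4 also had higher means there, against the direction of the label, and none of the 3 passed the test (limma adjusted p = 0.0954, 0.234 and 0.726). A value over the whole locus includes reads outside a deleted part, so this checks the labels only in part, and directions below follow the labels. The named loci of a library hold an approximate 1.42e+06 to 4.34e+06 fragments, as implied by the deposited intervals, and replicate 1 of each group is the shallowest.

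Thymic mesenchyme derives largely from the neural crest, surrounds the lobes and their vessels, and supports both the epithelium and the developing T cells. Its cells carry the PDGF receptors and secrete fibrillar collagens, collagen VI and small proteoglycans. Pericytes and smooth muscle cells wrap the vessels, endothelium lines them and admits progenitors, and the cortical and medullary epithelium, which depends on Foxn1, presents the ligands and peptides that guide T-cell development. In a sorted DN1 population these cells are not the target of the gate.

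Of the 30 mesenchymal and matrix genes, 28 were above 0 in all 6 libraries (Serpinf1 and Igfbp7 were not), and the difference was below 0 for 28 and above 0 for 2, Fn1 and Igfbp5. Of the 15 mural, endothelial and epithelial genes, 7 were under 1 FPKM in every library. Of the 47 genes, 35 reached 1 FPKM in at least 3 libraries and were tested, 2 fell (Serpinf1 and Pdgfrb; limma on log2(FPKM + 1), adjusted over 11063 genes, threshold 0.05) and 0 rose. Over all 11063 genes 0.108% were called lower and 0.642% higher, 0.75% in all. At an unadjusted p under 0.05, 23 of the 35 were lower and 1, Krt8, was higher, beside 4.35% and 5.68% of all genes tested. The libraries did not overlap between groups for 14 of the 35, all lower in the labelled-deficient group and all mesenchymal, and for 1 that was higher, Pecam1. Among all 47, tested or not, 14 were lower and 3 higher without overlap. The 3 were Pecam1 and the low, untested Acta2 and Cdh5. Over all genes tested the groups did not overlap for 6.56% in the lower and 8.67% in the higher direction. Because a gene could pass the filter through its higher group alone, the median was taken over every gene whether tested or not. The median log2 difference was -1.06 over all 47 and -1.96 over the 30 mesenchymal genes, beside 0.00 over all 23401 units of the joined table. In bulk RNA, fewer cells of a type and less RNA per cell cannot be told apart.

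**Figure D1:**
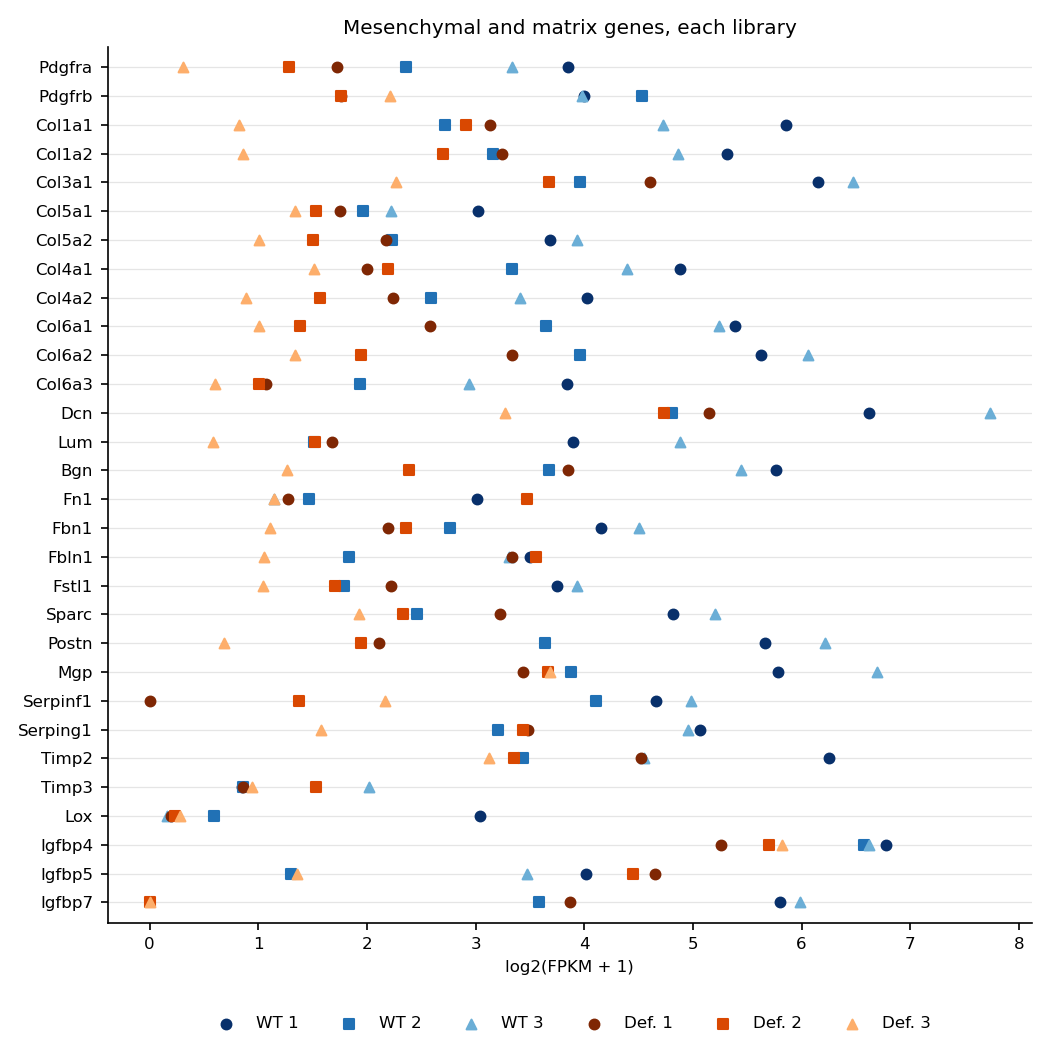
Level of each of the 30 mesenchymal and matrix genes as log2(FPKM + 1) on the horizontal axis, with 1 point per library (blue, WT replicates 1 to 3; brown to orange, replicates 1 to 3 labelled deficient). WT replicates 1 and 3 lie to the right for most genes. WT replicate 2 is the lowest WT library for 26 of the 30, beside 35.5% of all genes tested, Pdgfrb being an exception.

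The level of the mesenchymal genes differed among the WT libraries as well as between the groups. Their summed level was 1020.1, 328.7 and 1117.8 FPKM in WT replicates 1 to 3 and 269.6, 214.4 and 119.4 FPKM in the labelled-deficient replicates. Without Igfbp4, an abundant gene that was even within each group, the sums were 911.7, 234.7 and 1020.8 FPKM against 232.2, 163.4 and 63.8 FPKM. WT replicate 2 thus stood near labelled-deficient replicate 1, and labelled-deficient replicate 3 was the lowest. Taking each gene relative to its own WT mean, the median of the 30 genes was 133%, 34.4% and 123% in the WT replicates and 32.8%, 20.1% and 8.49% in those labelled deficient. The same median over all genes tested was between 79.8% and 119% in every library. Counted after the values were seen, 24 of the 30 genes had WT replicates 1 and 3 both above the other 4 libraries, as did 859 of the 11063 genes tested. The exceptions were Pdgfrb, Fn1, Fbln1, Igfbp5, Timp3 and Lox. Labelled-deficient replicate 3 was the lowest of all libraries for 22 of the 30 genes, beside 10.1% of all genes tested. Labelled-deficient replicate 1 lay above WT replicate 2 for 14 of the 30 (46.7%), beside 52.5% of all genes tested.

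**Figure D2:**
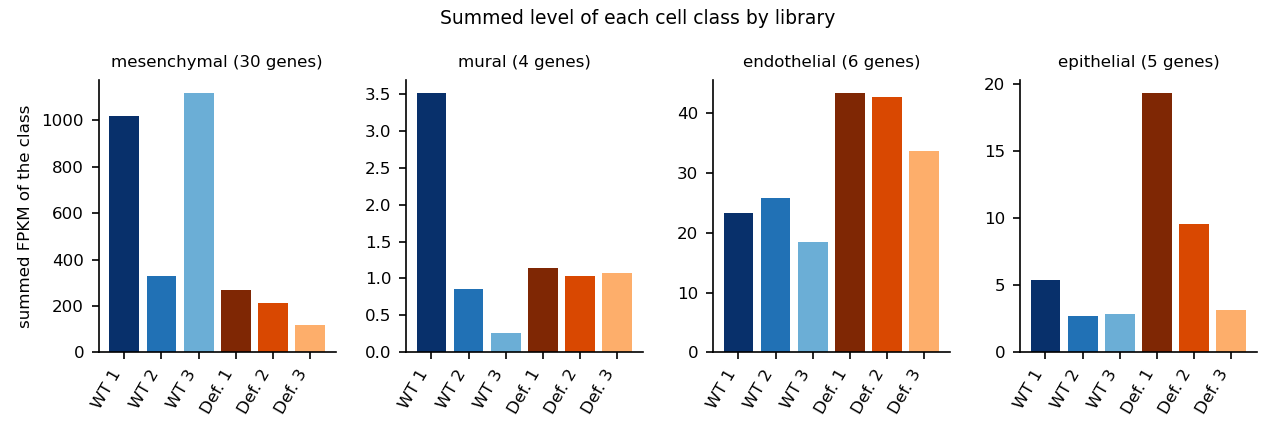
Summed FPKM of the mesenchymal, mural, endothelial and epithelial genes (vertical axis, a separate scale per panel) by library. The mesenchymal sum is highest in WT replicates 1 and 3, at 1020.1 and 1117.8 FPKM, and the mural sum is at most 3.51 FPKM.

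The PDGF receptors are tyrosine kinases through which mesenchymal cells and pericytes receive growth signals. Pdgfrb (mm9 chromosome 18, 61204804 to 61244721) measured 15.0, 22.1 and 14.8 FPKM across WT and 2.38, 2.40 and 3.63 FPKM across the labelled-deficient libraries. The 3 WT values were all above the other 3, and here WT replicate 2 was the highest library rather than the lowest of its group. The log2 difference was -2.26 ± 0.42 (SE, limma adjusted p = 0.0469), from 17.3 ± 4.19 to 2.80 ± 0.715 FPKM (SD, n = 3 each). Every omission of 1 library ended the call, with adjusted p = 0.151, 0.157 and 0.0951 without WT replicates 1, 2 and 3 and 0.158, 0.166 and 0.0653 without labelled-deficient replicates 1, 2 and 3. Pdgfra (chromosome 5, 75548316 to 75594229), whose locus also names the microRNA gene Mir7025 in all 6 tables, measured 13.4, 4.12 and 9.10 FPKM against 2.31, 1.43 and 0.234 FPKM. Its groups did not overlap, but the interval deposited for labelled-deficient replicate 1 ran from 0 to 7.81 FPKM, and the gene did not pass (log2 difference -2.08, limma adjusted p = 0.196). The ratio of Pdgfrb to Pdgfra was 1.12, 5.38 and 1.63 in WT and 1.03, 1.68 and 15.5 in the labelled-deficient libraries. The Pdgfra value of labelled-deficient replicate 3 has a deposited interval from 0 to 2.15 FPKM and those of replicates 1 and 2 reach down to 0, so the ratios of that group are not determined. All 4 PDGF ligand genes stayed under 1.5 FPKM in each library, and 0 of them could be tested.

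Fibrillar collagens form the tensile fibres of connective tissue, with Col1a1 and Col1a2 as the chains of type I, Col3a1 of type III, and Col5a1 and Col5a2 of type V, which starts the fibrils. Col3a1 (chromosome 1, 45368383 to 45406551) was the most abundant of them, at 70.0, 14.5 and 87.9 FPKM across WT and 23.3, 11.8 and 3.83 FPKM across the labelled-deficient libraries. The groups overlapped, because WT replicate 2 lay below labelled-deficient replicate 1. Col1a1 measured 56.9, 5.57 and 25.4 FPKM against 7.75, 6.52 and 0.772 FPKM, and Col1a2 38.7, 7.96 and 28.1 FPKM against 8.45, 5.52 and 0.817 FPKM. For Col1a1 the value of WT replicate 2 has a deposited interval from 0 to 15.5 FPKM, so its place among the labelled-deficient libraries is uncertain. The log2 differences of Col3a1, Col1a1 and Col1a2 were -2.01, -2.14 and -2.18, each with an SE of 0.73 to 0.84, and none passed (limma adjusted p = 0.371, 0.405 and 0.293). The ratio of Col1a1 to Col1a2, whose products join in one triple helix, stayed between 0.70 and 1.47 in the 6 libraries. Col5a2 (11.9, 3.68 and 14.2 FPKM against 3.51, 1.84 and 1.02 FPKM) and Col5a1 (7.12, 2.89 and 3.68 against 2.37, 1.89 and 1.53 FPKM) did not overlap between the groups. The value of Col5a1 in labelled-deficient replicate 1 has an interval from 0 to 5.12 FPKM, which spans WT replicates 2 and 3. Neither passed the test (adjusted p = 0.314 and 0.647), and the interval of Col5a2 in WT replicate 2 is so wide, from 0 to 18931 FPKM, that its value there is not determined.

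Collagen IV is the network of basement membranes, under epithelium and around vessels. Col4a1 and Col4a2 lie head to head on chromosome 8, with 2 bases between their loci in mm9. Col4a1 (11198423 to 11312826) measured 28.5, 9.08 and 20.0 FPKM across WT and 3.01, 3.57 and 1.85 FPKM across the labelled-deficient libraries, and Col4a2 (11312829 to 11449287) 15.2, 5.04 and 9.62 against 3.73, 1.97 and 0.852 FPKM. All WT values of both genes were above all labelled-deficient ones. The differences of -2.30 ± 0.50 and -1.77 ± 0.56 (SE) did not pass (limma adjusted p = 0.0885 and 0.249). Col4a1 exceeded Col4a2 by 1.80 to 2.18 times in 5 libraries, while in labelled-deficient replicate 1 the ratio was 0.807.

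Collagen VI forms beaded filaments between cells and basement membranes and is made mainly by fibroblasts. Col6a1 (chromosome 10, 76171537 to 76188789) measured 40.8, 11.5 and 36.7 FPKM across WT and 4.97, 1.61 and 1.01 FPKM across the labelled-deficient libraries. Col6a2, 85.4 kb away on the same chromosome, measured 48.5, 14.5 and 65.7 against 9.12, 2.85 and 1.53 FPKM. The third chain, Col6a3 on chromosome 1, was lower in level, at 13.4, 2.83 and 6.66 against 1.106, 1.005 and 0.521 FPKM. None of the 3 overlapped between the groups, and in each the gap lay between WT replicate 2 and labelled-deficient replicate 1. The mean of Col6a1 was 11.7-fold higher in WT, and its log2 difference of -3.10 ± 0.60 (SE) stood just outside the threshold (limma adjusted p = 0.056). Col6a2, at -3.01 ± 0.67 (SE), did not pass either (limma adjusted p = 0.0897).

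Promoter sequences are shown for 4 genes that represent the range above: Serpinf1, which passed the test, Col6a1, whose groups did not overlap but which did not pass, and Col1a2 and Col3a1, whose groups overlapped. They are the 250 bases before the annotated start in the RefSeq annotation of GRCm38.p6 (a later build than the mm9 of the tables), written on the strand of the gene. The windows are chr11:75422624-75422873 on the minus strand for Serpinf1, chr10:76726045-76726294 on the minus strand for Col6a1, chr6:4505368-4505617 on the plus strand for Col1a2 and chr1:45311288-45311537 on the plus strand for Col3a1. Capitals mark matches on either strand to the TATA box (TATAAA), the CCAAT box (CCAAT), the GC box (GGGCGG), the Runx core (TGTGGT) and the Tcf/Lef core (CTTTGA or CTTTGT), the last pair being partners of Tle proteins.
Serpinf1: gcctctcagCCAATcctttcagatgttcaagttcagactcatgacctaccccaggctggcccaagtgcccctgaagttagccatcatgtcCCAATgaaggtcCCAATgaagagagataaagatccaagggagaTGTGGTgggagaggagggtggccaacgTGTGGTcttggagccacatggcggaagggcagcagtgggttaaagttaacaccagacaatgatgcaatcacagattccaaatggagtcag
Col6a1: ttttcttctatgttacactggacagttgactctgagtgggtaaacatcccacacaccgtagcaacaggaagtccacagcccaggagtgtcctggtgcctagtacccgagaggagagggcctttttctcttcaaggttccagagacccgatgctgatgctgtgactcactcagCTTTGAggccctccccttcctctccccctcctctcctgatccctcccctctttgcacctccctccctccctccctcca
Col1a2: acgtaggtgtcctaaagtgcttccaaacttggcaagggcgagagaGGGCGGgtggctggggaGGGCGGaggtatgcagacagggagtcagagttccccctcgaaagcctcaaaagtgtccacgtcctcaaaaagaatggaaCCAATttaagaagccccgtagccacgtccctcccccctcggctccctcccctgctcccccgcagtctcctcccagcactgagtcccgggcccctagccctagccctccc
Col3a1: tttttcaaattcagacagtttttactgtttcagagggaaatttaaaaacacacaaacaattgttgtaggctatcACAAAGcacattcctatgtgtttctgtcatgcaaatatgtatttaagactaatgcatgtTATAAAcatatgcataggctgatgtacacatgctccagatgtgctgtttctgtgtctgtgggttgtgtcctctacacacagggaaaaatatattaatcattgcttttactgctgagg
The Serpinf1 window holds the CCAAT letters 3 times and the Runx letters 2 times, with first bases 117 and 90 bases before the start. Col6a1 holds 1 Tcf/Lef match, Col3a1 holds 1 Tcf/Lef and 1 TATA match, and Col1a2 holds 1 CCAAT and 2 GC box matches. Of 32851 windows in the annotation, 33.8% hold the CCAAT letters, 14.0% the Runx letters, 27.6% a Tcf/Lef match, 32.7% a GC box and 12.4% the TATA letters. Windows were found for 33 of the 47 genes (36 windows), of which 25% hold the CCAAT letters, 2.78% the Runx letters, 16.7% a Tcf/Lef match, 44.4% a GC box and 11.1% the TATA letters. A match of letters is a description and not a binding site.

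Serpinf1 was grouped here by role with Serping1, Timp2, Timp3 and Lox, as inhibitors and crosslinkers. Serpinf1 (chromosome 11, 75223531 to 75236125) encodes pigment epithelium-derived factor, a secreted serpin that inhibits vessel growth. It measured 24.2, 16.2 and 30.6 FPKM across WT and 0, 1.59 and 3.50 FPKM across the labelled-deficient libraries, and is listed at 0 in the shallow replicate 1. All WT values were above the others, and WT replicate 2 reached 59.2% of the mean of WT replicates 1 and 3, against a range of 8.73% to 149% over the mesenchymal genes. The log2 difference was -3.40 ± 0.59 (SE, limma adjusted p = 0.0376). The call held without labelled-deficient replicate 3 (adjusted p = 0.0384) and was lost without WT replicates 1, 2 and 3 (0.155, 0.0851 and 0.119) and without labelled-deficient replicates 1 and 2 (both 0.122). Serping1, the C1 inhibitor of the complement system, measured 32.5, 8.22 and 29.98 against 10.2, 9.84 and 1.99 FPKM and overlapped (adjusted p = 0.456). Timp2, an inhibitor of matrix metalloproteinases, ranged from 9.85 to 75.3 FPKM in WT and from 7.74 to 21.9 FPKM in the other group (adjusted p = 0.7). Timp3 stayed at or under 3.06 FPKM in every library, and Lox, the enzyme that crosslinks collagen and elastin, reached 7.22 FPKM in WT replicate 1 and at most 0.506 FPKM elsewhere. Neither Timp3 nor Lox was tested.

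Small leucine-rich proteoglycans bind collagen fibrils and set their diameter. Decorin (Dcn, chromosome 10, 96942134 to 96980796) was the most abundant mesenchymal gene in WT, at 97.4, 27.0 and 211.8 FPKM, and measured 34.5, 25.5 and 8.64 FPKM across the labelled-deficient libraries. Lumican (Lum), its neighbour at 47.3 kb, measured 13.9, 1.85 and 28.4 against 2.19, 1.88 and 0.495 FPKM, and biglycan (Bgn) 53.2, 11.8 and 42.3 against 13.4, 4.22 and 1.40 FPKM. In all 3 genes WT replicate 2 lay below labelled-deficient replicate 1, so the groups overlapped and none passed (adjusted p = 0.374, 0.362 and 0.223). Dcn exceeded Lum in every library, with ratios of 7.01, 14.6 and 7.46 in WT and 15.7, 13.6 and 17.4 in the libraries labelled deficient.

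Among the matrix glycoproteins, periostin (Postn, chromosome 3, 54165029 to 54194963), a protein of fibroblasts that remodel collagen, measured 49.6, 11.4 and 73.3 FPKM across WT and 3.33, 2.85 and 0.606 FPKM across the labelled-deficient libraries. Its mean was 19.8-fold higher in WT with no overlap, and the log2 difference of -3.59 ± 0.69 (SE) did not pass (limma adjusted p = 0.0534). Postn passed with libraries scaled to the same upper quartile (0.0462) and with genes filtered on a mean of 5 FPKM (0.0351). Fibrillin-1 (Fbn1), which builds microfibrils, did not overlap either. Its values were 16.8, 5.80 and 21.7 against 3.58, 4.13 and 1.16 FPKM, with an adjusted p = 0.232. Matrix Gla protein (Mgp), an inhibitor of calcification, measured 54.1, 13.7 and 102.7 FPKM across WT, against 9.82, 11.7 and 11.9 FPKM. The gap between WT replicate 2 and the highest labelled-deficient library was small beside the deposited intervals, which ran from 10.6 to 16.8 FPKM and from 8.81 to 14.9 FPKM (adjusted p = 0.325). Sparc, a collagen-binding protein, and Fstl1, a secreted follistatin relative, overlapped between groups with log2 differences of -1.67 and -1.50 (adjusted p = 0.458 and 0.477).

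Not every matrix gene followed this order. Fibronectin (Fn1) measured 7.08, 1.76 and 1.21 FPKM across WT and 1.42, 10.1 and 1.21 FPKM across the labelled-deficient libraries, with an interval in WT replicate 1 too wide to place its value (0 to 15592 FPKM). Fibulin-1 (Fbln1) measured 10.3, 2.56 and 8.88 against 9.08, 10.8 and 1.08 FPKM. Both differences were small beside their error, at 0.09 ± 0.76 and -0.23 ± 0.74 on the log2 scale (SE, limma adjusted p = 0.993 and 0.977).

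IGF-binding proteins hold insulin-like growth factors outside the cell, and the 3 genes here had 3 patterns. Igfbp4 (chromosome 11, 98902574 to 98913957) was even within each group, at 108.4, 94.0 and 97.0 FPKM across WT and 37.4, 51.0 and 55.5 FPKM across the labelled-deficient libraries. WT replicate 2 reached 91.5% of the mean of the other WT libraries, and the group means differed by 2.08-fold with no overlap (log2 difference -1.06 ± 0.42, SE, limma adjusted p = 0.41). Igfbp7 measured 54.8, 10.95 and 62.3 FPKM across WT, against 13.6 FPKM in labelled-deficient replicate 1, and was listed at 0 in replicates 2 and 3 (adjusted p = 0.178). Igfbp5 was highest in labelled-deficient replicates 1 and 2, at 24.2 and 20.8 FPKM, with 1.56 FPKM in replicate 3 and 15.2, 1.47 and 10.1 FPKM in WT (adjusted p = 0.94).

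**Figure D3:**
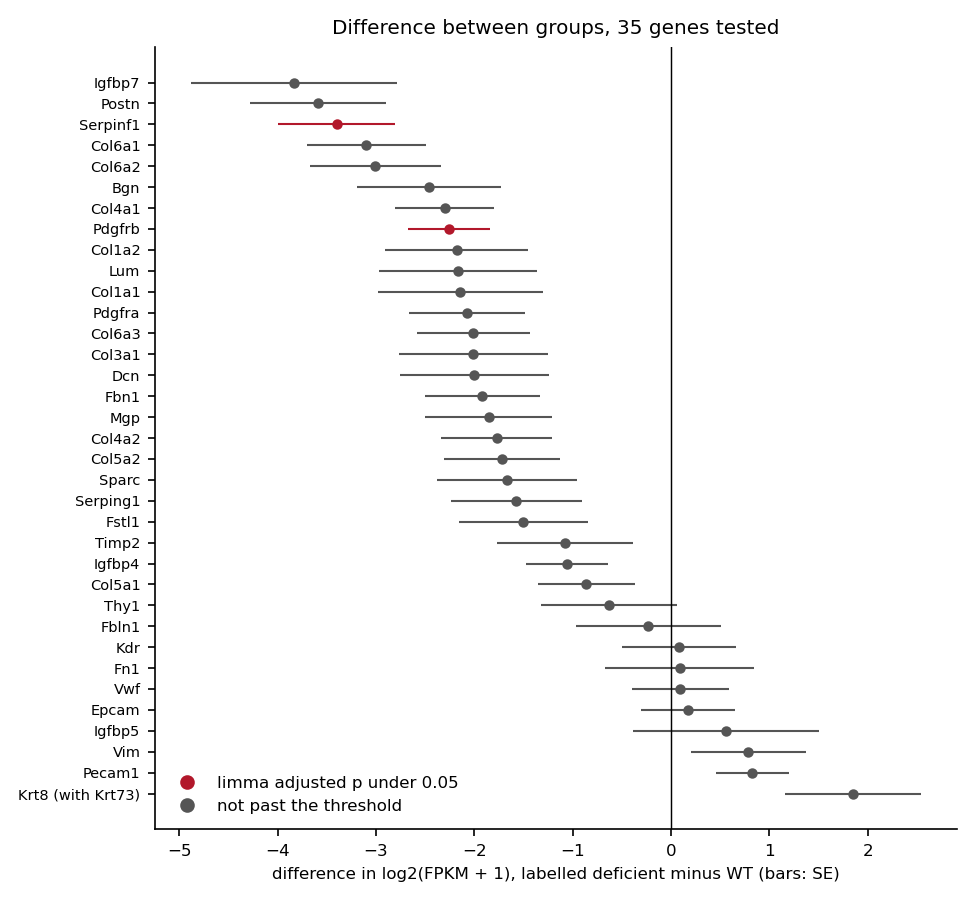
Difference in log2(FPKM + 1) between the libraries labelled deficient and WT (horizontal axis) for the 35 genes tested, with the standard error as a bar. Serpinf1 and Pdgfrb, in red, are past the threshold. Krt8 is fitted together with Krt73.

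Thy1 and Vim are genes that the sorted cells are themselves known to express. Vim, the intermediate filament protein of mesenchymal cells and leukocytes, measured 118.8, 82.4 and 252.1 FPKM across WT and 277.7, 151.3 and 305.3 FPKM across the labelled-deficient libraries, the highest WT mean of all 47 genes. Thy1, a surface glycoprotein of thymocytes and fibroblasts, measured 97.5, 29.1 and 125.4 against 105.0, 35.7 and 24.9 FPKM. For Thy1, as for most matrix genes, WT replicate 2 was the lowest WT library and labelled-deficient replicate 3 the lowest of all, while labelled-deficient replicate 1 lay between WT replicates 1 and 3. The groups overlapped for both genes (limma adjusted p = 0.749 for Vim and 0.864 for Thy1).

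The 4 mural genes of the list were low in both groups. Tagln, an actin-binding protein of smooth muscle, was listed at 0 in all 6 libraries. Acta2, smooth muscle actin, was listed at 0 in WT replicates 1 and 3 and measured 0.350 FPKM in WT replicate 2 against 0.432, 0.878 and 1.05 FPKM in the other group. Cspg4 stayed under 1 FPKM throughout, and Rgs5, a pericyte gene, was above 1 FPKM in WT replicate 1 alone (2.58 FPKM). None of the 4 reached the filter, and their sums were 0.267 to 3.51 FPKM in WT and 1.04 to 1.14 FPKM in the other group. Mural cells share Pdgfrb with fibroblasts. Of 10 other mural genes, 2 had all WT values above the rest, beside 6.56% of all genes tested. Differences were below 0 for 7 of the 10 and above 0 for 3, Mcam, Cnn1 and Myl9. Notch3, a receptor of pericytes, smooth muscle and other cells, was chosen after its values were seen. It measured 3.89, 4.38 and 4.69 against 0.972, 1.56 and 0.338 FPKM without overlap (limma adjusted p = 0.261). Des, given with the wider lists, did not overlap either. The part of Notch3 and Des in the lower Pdgfrb was not tested.

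**Figure D4:**
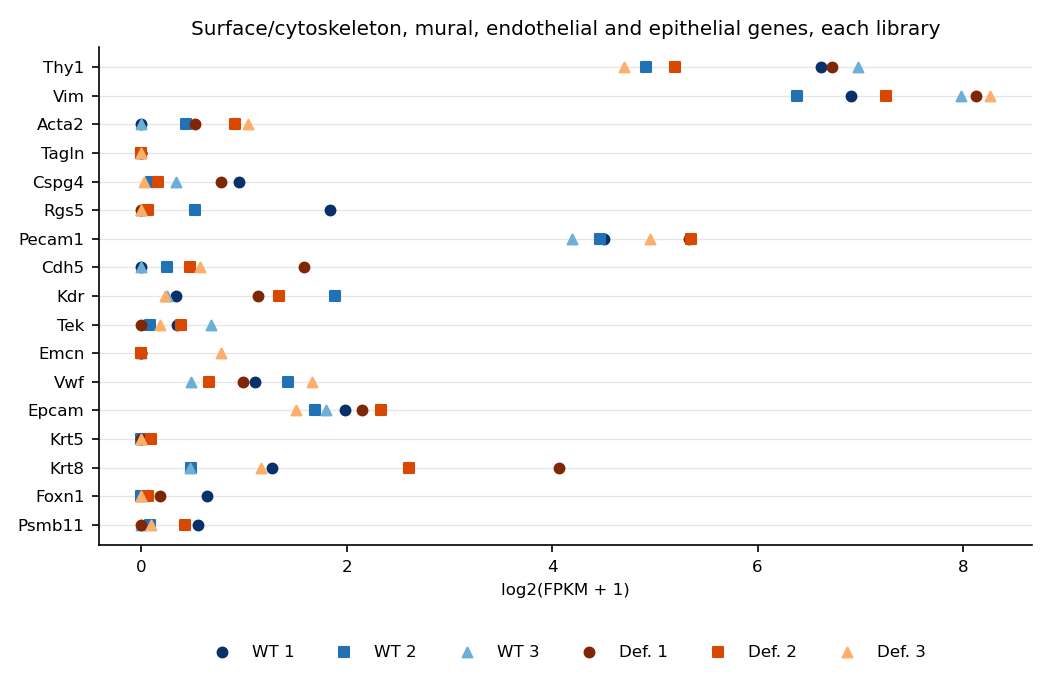
Level of Thy1, Vim and the mural, endothelial and epithelial genes as log2(FPKM + 1) on the horizontal axis, with 1 point per library in the same colours and symbols as above. Thy1, Vim and Pecam1 are well above the rest, and Tagln lies at 0 in every library.

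Of the endothelial genes, Pecam1 was the exception in level. Pecam1, on chromosome 11, encodes an adhesion protein of endothelium that leukocytes and progenitors also carry. It measured 21.7, 21.1 and 17.3 FPKM across WT and 39.2, 39.9 and 30.04 FPKM across the labelled-deficient libraries, with no overlap and a log2 difference of 0.82 ± 0.37 (SE, limma adjusted p = 0.506). The other endothelial genes of the list were low: Cdh5, the junctional cadherin, was at most 0.185 FPKM in WT and 0.388 to 1.99 FPKM in the other group, which shallow counts leave uncertain (0 to 4.90 FPKM in labelled-deficient replicate 1), and Emcn was above 0 in labelled-deficient replicate 3 alone (0.706 FPKM). Kdr, the main VEGF receptor, peaked at 2.70 FPKM in WT replicate 2, Vwf at 2.16 FPKM in labelled-deficient replicate 3 and Tek at 0.603 FPKM in WT replicate 3. Without Pecam1 the summed level of the class was 1.19 to 4.63 FPKM in WT and 2.80 to 4.18 FPKM across the labelled-deficient libraries, and 0 of the 6 genes passed.

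Thymic epithelial genes were also low, with 1 keratin standing apart. Foxn1, the master factor of thymic epithelium, Psmb11, the proteasome subunit of cortical epithelium, and Krt5, a medullary keratin, were under 1 FPKM in all 6 libraries. Epcam, an adhesion protein of epithelia and of some other cells, was even at 2.24 to 2.97 FPKM in WT and 1.84 to 4.05 FPKM in the other group (limma adjusted p = 0.972). Krt8, a keratin of simple epithelia and cortical thymic epithelium, measured 1.42, 0.400 and 0.388 FPKM across WT and 15.8, 5.10 and 1.25 FPKM across the labelled-deficient libraries. On its own loci the groups overlapped. The fit joined it with Krt73, since 1 table names both at one locus, and gave a log2 difference of 1.85 ± 0.69 (SE, adjusted p = 0.363).

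The wider lists of the same cell classes, 106 genes all found in the tables, had 50 tested genes, of which 1 fell and 0 rose. Tested or not, 17 of the 106 were lower without overlap, 9 of them other mesenchymal and matrix genes. In the higher direction this held for 1, Krt18. Over all genes tested the shares without overlap were 6.56% lower and 8.67% higher. Of 52 other mesenchymal and matrix genes, 35 were tested and 0 passed (limma adjusted p under 0.05), 45 of the 52 differences were below 0 and 5 above, and the median over all 52 was -0.79. Col15a1, a basement membrane collagen, had the smallest p of that list, at 42.7, 6.99 and 39.3 FPKM across WT, against 2.59, 1.67 and 0.738 FPKM (adjusted p = 0.0706). Among 10 other mural genes 7 differences were below 0 and 3 above (median -0.53), 2 were lower without overlap, 3 were tested and 0 passed, with Des, the muscle intermediate filament protein, first by p with 10.005, 2.65 and 7.91 against 0.571, 0.367 and 0.223 FPKM (limma adjusted p = 0.101). Of 22 other endothelial genes, 17 differences were below 0 and 5 above (median -0.34). Lower without overlap were 5 genes, of which Plvap and Flt4 did not reach the filter. Among the 6 tested, Egfl7, a secreted protein of endothelium and some progenitors, fell, at 15.5, 21.8 and 19.7 against 0.723, 0.753 and 4.50 FPKM (log2 difference -2.96 ± 0.54, SE, limma adjusted p = 0.0467). In Egfl7, as in Pdgfrb, WT replicate 2 was the highest library. Of the 5 genes above 0 only Icam2 was tested, at 12.1, 5.34 and 32.2 against 25.6, 15.2 and 18.9 FPKM (limma adjusted p = 0.861). Eng is a TGF-beta coreceptor of endothelium and other cells, and Erg an endothelial and progenitor transcription factor. Both were chosen after their values were seen, and they did not overlap between the groups and did not pass. Eng measured 15.8, 27.3 and 10.7 against 0, 1.17 and 5.08 FPKM (adjusted p = 0.104), and Erg 6.16, 19.1 and 9.16 against 2.25, 1.45 and 6.09 FPKM (adjusted p = 0.356). The call of Egfl7 held without labelled-deficient replicate 3 (limma adjusted p = 0.0365). That call was lost without WT replicates 1, 2 and 3 (0.149, 0.14 and 0.129) or labelled-deficient replicates 1 and 2 (0.158 and 0.163). The 18 other epithelial genes had 7 differences below 0 and 11 above (median 0.15), with 6 tested and 0 called, led by Krt18, the partner of Krt8, at 5.26, 1.29 and 2.09 FPKM across WT, against 18.6, 7.15 and 6.72 FPKM (adjusted p = 0.336).

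Markers of haematopoietic cells moved between the same libraries. The summed level of 8 B-cell genes was 31.1 to 99.5 FPKM in WT and 552.5 to 875.3 FPKM across the labelled-deficient libraries, with 7 of the 8 at 1 FPKM or more in each WT library and all 8 in the others. The 8 T-lineage genes summed to 791.5, 382.7 and 993.6 FPKM in WT and 584.5, 257.2 and 170.3 FPKM, with all 8 at 1 FPKM or more in each library. WT replicate 2 was thus the lowest WT library and labelled-deficient replicate 3 the lowest of all in T-lineage as in mesenchymal genes. Myeloid genes (9 matched, 6 to 8 at 1 FPKM or more) summed to 108.3 to 461.5 FPKM in WT and 95.2 to 1170.5 FPKM, the highest in labelled-deficient replicate 3. The 7 genes of the mast cell list were Cpa3, Kit, Fcer1a, Ms4a2, Tpsb2, Mcpt4 and Cma1. Of these, 5 to 7 were at 1 FPKM or more in WT and 1 to 4 in the other group. Their sums were 79.2 to 288.7 FPKM in WT and 10.4 to 86.6 FPKM in the other group, which is not a count of mast cells. The 4 general leukocyte genes, all detected in each library, summed to 305.7 to 800.4 FPKM in WT and 510.8 to 798.4 FPKM. For mast cell and leukocyte genes too WT replicate 2 was the lowest WT library, while for B-cell and myeloid genes it was WT replicate 1. The 7 fibroblast genes, all of them among the 47, summed to 305.3, 83.2 and 405.4 FPKM across WT and 80.9, 55.1 and 18.4 FPKM across the labelled-deficient libraries. The part of these shifts in the lower matrix values was not tested.

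**Figure D5:**
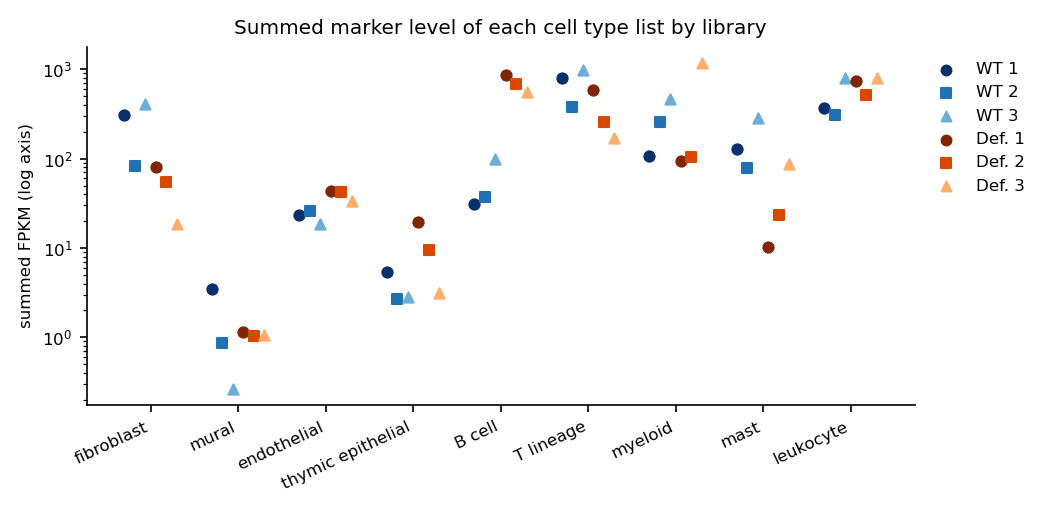
Summed FPKM (vertical log axis) of 9 marker lists (horizontal axis), with 1 point per library. Fibroblast genes are highest in WT replicates 1 and 3, B-cell genes are at least 552.5 FPKM in the labelled-deficient libraries and at most 99.5 FPKM in WT, and myeloid genes peak in labelled-deficient replicate 3.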

How the data were processed

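Cells were sorted, RNA extracted on columns and libraries made with an Illumina protocol, per the labels' protocols. Trimmomatic 0.38, TopHat2 2.1.1, featureCounts 2.0.1 and the build mm9 are named in the submitters' processing notes without a role. The deposited values are FPKM with a lower and an upper bound, in the layout of a Cufflinks gene table, per the file headers; the sources used here give neither the annotation nor the use of strand. Each library has its own table, and FPKM is relative to that library's total.

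Tables were joined on symbol, and symbols sharing a locus in any library became 1 unit (23401 units). Pdgfra and Krt8 are the joined genes; their printed levels come from the loci naming them. Locus starts were raised by 1 to count from 1. Units with 1 FPKM or more in at least 3 libraries (11063) were tested by limma 3.58.1 (R 4.3.3) on log2(FPKM + 1), which understates changes of low genes, on group alone, using limma's intensity trend and robust moderation, and Benjamini-Hochberg adjusted at 0.05. The fit was tested on simulated data with independent noise for each gene. The simulation held no library shift shared among genes, so that case was not tested. Fragments were implied by reading the deposited interval as the estimate plus and minus 2 counting SD; read counts are unknown, and 10 of 198 values of at least 1 FPKM rest on under 10 implied fragments. Joins used Python 3.11.15 and pandas 2.3.3.

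The genes and lists were chosen with earlier results of these data known. Values by library are given for genes past the threshold, genes without overlap and a mean of at least 5 FPKM in the higher group, the 3 most abundant of each class and genes at 0 in a group; the others were added after seeing their values. Alternatives covered the pseudocount (0.1 and 5), filter, moderation, scaling, array weights, replicate number as a block, symbols kept apart, and each library left out.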

Additional observations from a re-analysis of the deposited data

How the results depend on the processing

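Limits first: the call of Serpinf1 and Pdgfrb depends on the settings, and values of 1 FPKM or less or with wide deposited intervals carry little information at this depth. Over all genes limma called 83 (71 higher, 12 lower), and 53 with a pseudocount of 0.1, 55 without trend and robust moderation, 125 with array weights and 0 without a filter on low values (1181 genes at an unadjusted p under 0.05). Leaving out 1 library gave 0 to 58 calls: 0 without WT replicate 1 or labelled-deficient replicates 1 or 2 (877, 951 and 956 genes at an unadjusted p under 0.05), 4 when WT replicate 2 and 45 when labelled-deficient replicate 3 was omitted. Of the 47 genes, limma called 2, and 1 with a pseudocount of 5 (Serpinf1), 4 with a filter on a mean of 5 FPKM (Pdgfrb, Serpinf1, Col6a1 and Postn) and 0 with a pseudocount of 0.1, without a filter or without trend and robust moderation (25, 22 and 24 at an unadjusted p under 0.05, against 24). Leaving out 1 library gave 0 to 1 calls, with 13 to 23 at an unadjusted p under 0.05. Of the wider lists 1 was called, and 0 with a pseudocount of 0.1, without a filter, without trend and robust moderation or with each symbol by itself (17, 19, 18 and 17 at an unadjusted p under 0.05, against 17), 2 with array weights (Egfl7 and Eng) and 0 to 2 with 1 library left out. Without both shallowest libraries, chosen after seeing the data, limma called 0 genes (720 at an unadjusted p under 0.05) and 0 of the 47 (16).

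The labels state no pairing of the libraries by replicate number. Deviations from the group means correlated at 0.08, 0.18 and 0.17 for numbers 1 to 3, and at -0.20 to 0.03 between unlike numbers. Each library thus correlated best with its own number. Deviations within a group cancel by construction, so these correlations are tied to each other. Replicate 1 is also the shallowest library of both groups. The values therefore cannot show whether the libraries were paired. With the replicate block limma called 2 genes, 0 of the 47 and 0 of the wider lists (1374, 26 and 19 at an unadjusted p under 0.05).

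Pdgfrb kept its direction under all 17 alternatives, with a log2 difference of -2.59 to -1.50 and adjusted p of 0.0268 to 0.364, and passed under 5; Serpinf1 did so too (-4.77 to -2.10, 0.0238 to 0.32) and passed under 7. Of the 23 genes followed singly, 3 low ones reversed: Kdr (0.08 as reported; range with 1 library left out -0.21 to 0.61) with a pseudocount of 5 (-0.0011), without WT replicates 1 and 3 (-0.16 and -0.21), without labelled-deficient replicates 1 and 2 (-0.037 and -0.14) and without both shallowest libraries (-0.28); Vwf with upper quartile scaling (-0.030), array weights (-0.10), and on omitting WT replicate 3 (-0.16) or labelled-deficient replicate 3 (-0.18), with up to 0.32 on other omissions; and Epcam without labelled-deficient replicate 2 (-0.0011; up to 0.41 on other omissions). The cause was not tested. Upper quartile scaling moved the median difference of all genes tested from 0.04 to -0.09.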
